A study of Mus musculus with 6 samples.

Results

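The genes described here are the 45 protein-coding genes whose symbols follow the pattern of the proteasome families Psma, Psmb, Psmc, Psmd and Psme with a number, out of 42256 genes in the count table. Membership follows from the symbol and gene type in the GENCODE M21 annotation and uses no measured value, although the family was picked with earlier results of these data known, and 4 pseudogenes of the same pattern were left out. The cells were macrophages derived from mouse bone marrow, and their total RNA was sequenced. Such macrophages are grown from marrow progenitors in medium carrying the macrophage growth factor CSF1. The donors were adult male mice on a mixed 129S1/Sv x C57BL/6 background, either CDH11+/+ (wild type, WT, 3 libraries) or CDH11-/- (knockout, KO, 3 libraries). All cultures were untreated and grown for 7 days with 20% L929-conditioned medium and 10% FBS. Cdh11 encodes the adhesion protein cadherin-11, and the series places the comparison in atherosclerosis. The design text mentions 4 KO animals while 3 KO libraries were analysed here, and the sample labels name no animals. The spread that each p-value rests on is therefore that of the libraries, and it may be technical.

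The proteasome is the barrel-shaped protease that degrades ubiquitin-tagged proteins in the cytosol and nucleus. Its 20S core is built of rings of alpha subunits (Psma genes) and beta subunits (Psmb genes), and the 19S cap, with its ATPases (Psmc genes) and other subunits (Psmd genes), binds and unfolds substrates. Of the beta subunits Psmb5, Psmb6 and Psmb7 carry the active sites. In immune cells, and in most cells exposed to interferon gamma, the inducible subunits Psmb8, Psmb9 and Psmb10 take their places during assembly and give the immunoproteasome, which favours peptides suited to MHC class I molecules. Activators of the Psme family bind the ends of the 20S core in place of the 19S cap: Psme1 and Psme2 form the interferon-inducible PA28 ring, Psme3 is its nuclear relative, and Psme4 encodes PA200.

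Libraries held 27170943 to 37113689 counts, and mitochondrial genes took 2.09 to 2.43% of them. Cdh11 was near the limit of detection in every library, with 6, 11 and 6 counts in WT 1 to WT 3 and 6, 4 and 5 in KO 1 to KO 3, so its transcript does not check the genotype labels. The macrophage identity of the cultures was clear: all 8 macrophage markers examined, among them Adgre1, Csf1r and Lyz2, were detected, with a summed 31025 to 33588 CPM in WT and 19539 to 25242 CPM in KO (CPM, a count relative to its TMM-normalised library size). Lyz2 alone gave 22772 to 24782 CPM of the WT sums and 13042 to 18118 CPM of the KO sums. Of the 8 markers Cd14, Csf1r and Lyz2 fell and Cd68 rose in KO. Markers of other cells were low, with 24.7 to 64.3 CPM in WT and 31.1 to 84.5 CPM in KO summed over 7 neutrophil genes, at most 2.09 CPM over 5 dendritic cell genes, 0.995 CPM over 7 lymphocyte genes and 4.79 CPM over 5 stromal genes. The stromal genes Dcn and Lum were at 0 counts in every library. The megakaryocyte and erythroid list summed to 167 to 242 CPM in WT and 172 to 277 CPM in KO, nearly all from Pf4, and 1 of its 2 tested genes, Ppbp, rose. The part of these marker differences in the results on the proteasome was not tested.

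KO macrophages carried more mRNA for most constitutive proteasome subunits. Of the 45 genes, 44 passed the filter on low counts, and 30 of these rose and 1 fell in KO at an adjusted p under 0.05 in edgeR's quasi-likelihood test. Over all 12862 tested genes, 18.5% rose and 16.8% fell (35.2% in either direction). The rises were mostly small, and the median log2 fold change over the 44 genes was 0.25, against 0.00139 over all tested genes. For 35 of the 44 genes every KO library lay above every WT library, which held for 27.0% of all tested genes, and for 1 gene every KO library lay below, which held for 26.4% (53.4% in either direction). The number of rises was sensitive to single libraries, being 16 without WT 1 and 11 without WT 2 and KO 2 together, while the share of all genes that rose became 7.93% and 5.49%. The sign of the fold change varied less, and 37 to 40 members had a positive one in each alternative fit. With all 6 libraries in edgeR, 39 of the 44 members had a positive one, beside 6453 of all 12862 tested genes. In bulk RNA, a change in the mRNA per cell and a change in the mix of cells cannot be told apart.

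**Figure D1:**
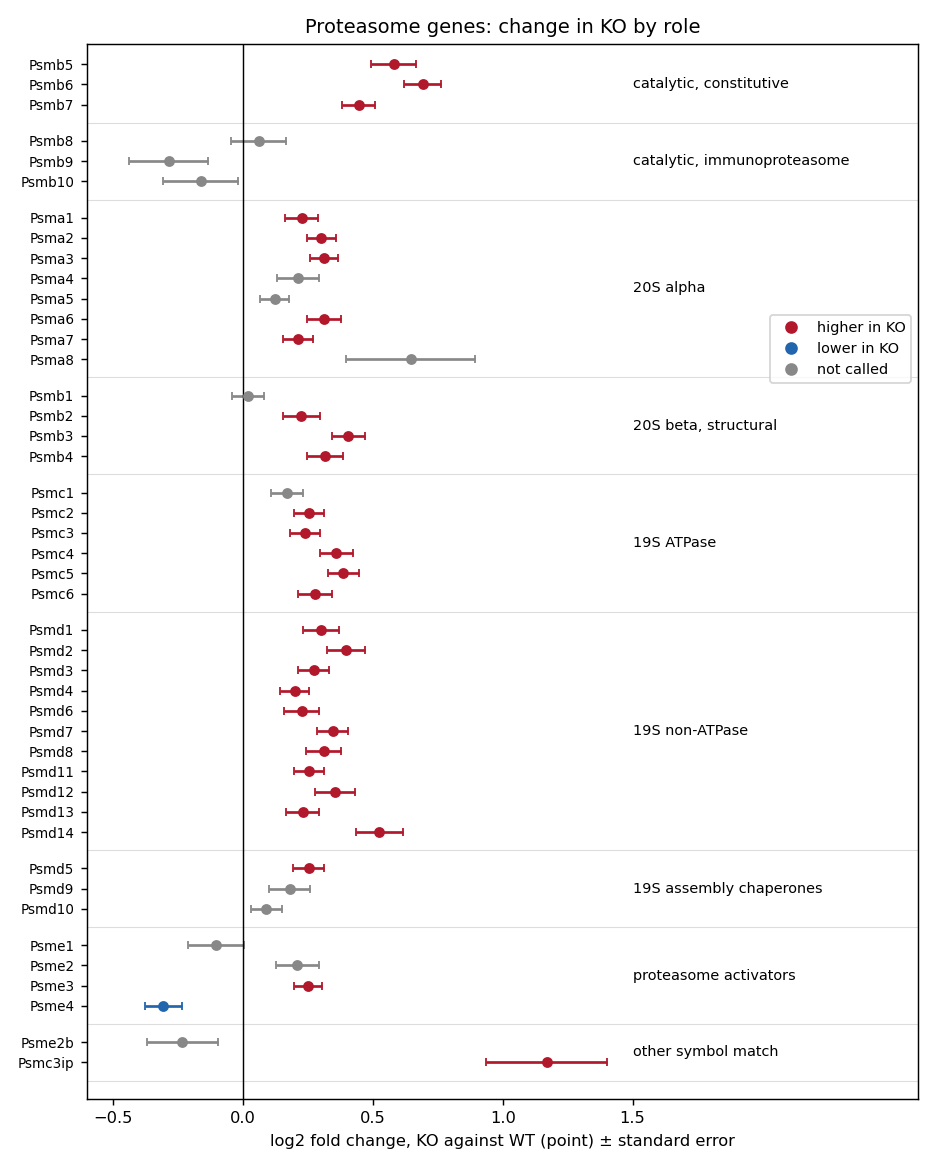
Log2 fold change of each of the 44 tested proteasome genes, KO against WT (x axis), with its standard error, ordered by role. Of these genes 30 are higher, 1 is lower and 13 are not called by edgeR at an adjusted p of 0.05; the 3 constitutive catalytic subunits lie at 0.44 to 0.69 and the 3 inducible ones at -0.29 to 0.06.

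The 3 constitutive catalytic subunits all rose, and Psmb6 and Psmb5 had the largest changes among the 20S genes that rose. Psmb6, the caspase-like subunit (ENSMUSG00000018286, GRCm38 chromosome 11, 70525367 to 70527858, plus strand), stood at 102, 95.0 and 94.3 CPM in WT 1 to WT 3 and at 144, 166 and 161 CPM in KO 1 to KO 3. Every KO library was far above every WT library, and the log2 fold change was 0.69 (SE 0.07; edgeR adjusted p = 0.00417), or 1.61-fold. Psmb5, the chymotrypsin-like subunit (ENSMUSG00000022193, chromosome 14, 54614119 to 54618022, minus strand), was very even in WT at 71.2, 71.7 and 70.6 CPM and reached 93.0, 117 and 109 CPM in KO. Its log2 fold change was 0.58 (SE 0.09; edgeR adjusted p = 0.00615), and KO 1 was the KO library nearest to WT. Psmb7, the trypsin-like subunit (ENSMUSG00000026750, chromosome 2, 38588036 to 38644087, minus strand), rose from 70.2, 66.6 and 68.2 CPM to 88.2, 99.5 and 91.4 CPM, a log2 fold change of 0.44 (SE 0.06; edgeR adjusted p = 0.00559). Psmb7 overlaps Nek6 on the opposite strand, and the strand setting of the counting is not given in the sources used here. The calls of all 3 subunits were kept in each alternative fit.

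None of the 3 inducible catalytic subunits was called in either direction. Psmb8 (ENSMUSG00000024338, chromosome 17, 34197721 to 34201454, plus strand), which replaces Psmb5, stood at 128, 161 and 122 CPM in WT and 141, 139 and 147 CPM in KO, with a log2 fold change of 0.06 (SE 0.11; edgeR adjusted p = 0.678). Psmb9 (ENSMUSG00000096727, chromosome 17, 34181987 to 34187764, minus strand), which replaces Psmb6, stood at 46.5, 61.6 and 41.2 CPM in WT and 44.7, 37.3 and 40.3 CPM in KO (log2 fold change -0.29, SE 0.15; edgeR adjusted p = 0.183). Psmb10 (ENSMUSG00000031897, chromosome 8, 105935735 to 105938444, minus strand), which replaces Psmb7, stood at 77.2, 109 and 75.7 CPM in WT and 82.2, 74.0 and 77.5 CPM in KO (log2 fold change -0.16, SE 0.14; edgeR adjusted p = 0.407). For all 3 genes WT 2 was the highest of the 6 libraries and the genotypes overlapped. Without WT 2 the log2 fold changes were 0.19 for Psmb8, -0.11 for Psmb9 and 0.02 for Psmb10, still with no call (edgeR adjusted p of 0.0872, 0.447 and 0.850). Psmb9 overlaps the peptide transporter gene Tap1 on the opposite strand, so their counts may not be fully separate.

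**Figure D2:**
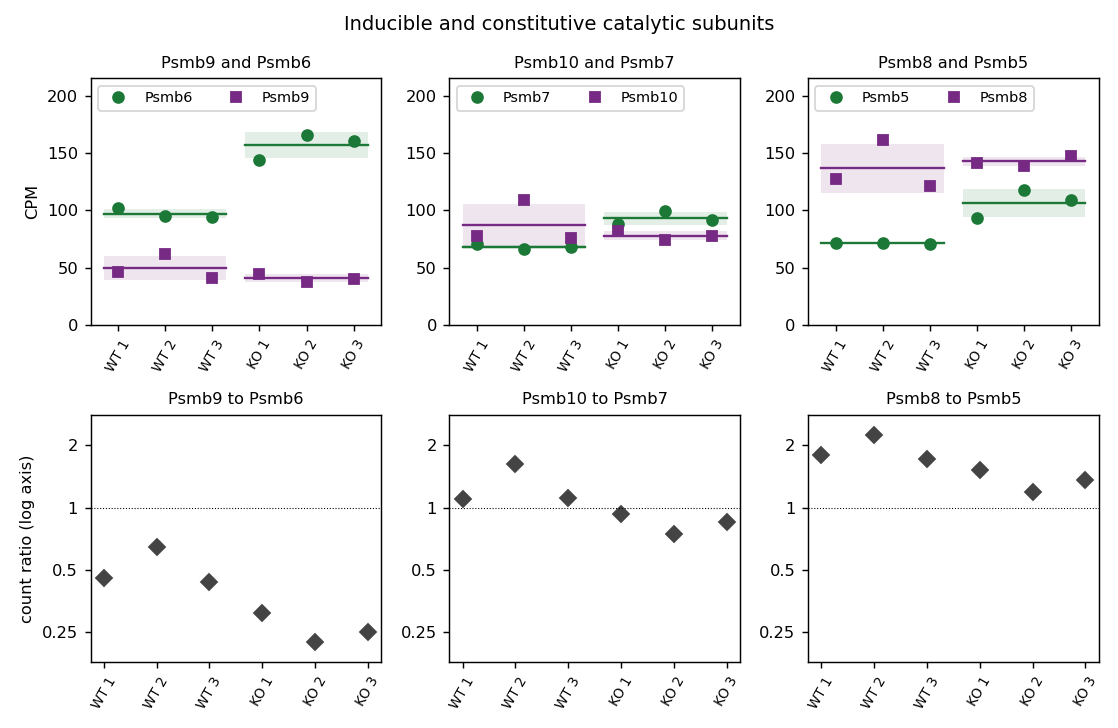
Upper panels: CPM in each library of each inducible subunit (squares) and the constitutive subunit it replaces (circles), with the mean (line) and ± 1 SD (band) of each genotype, n = 3. Lower panels: the ratio of their counts in the same library on a log axis; every KO library lies below every WT library for each of the 3 pairs, and WT 2 is the highest.

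Set against the subunit it replaces, each inducible subunit was relatively scarcer in KO. This comparison divides counts within a library and so does not depend on scaling. The ratio of Psmb9 to Psmb6 was 0.456, 0.648 and 0.436 in WT 1 to WT 3 and 0.310, 0.225 and 0.251 in KO 1 to KO 3. On the log2 scale it went from -0.98 ± 0.31 to -1.94 ± 0.24 (SD, n = 3), a difference of -0.96. The ratio of Psmb10 to Psmb7 was 1.10, 1.63 and 1.11 in WT and 0.932, 0.744 and 0.847 in KO. Per kb of coding transcript, Psmb10 against Psmb7 was 58.9 against 60.5, 82.9 against 57.4 and 57.8 against 58.8 CPM per kb in WT 1 to WT 3, so Psmb10 was the higher in WT 2 alone. The log2 difference of the count ratio was -0.59. The ratio of Psmb8 to Psmb5 was 1.79, 2.25 and 1.72 in WT and 1.52, 1.18 and 1.36 in KO, a log2 difference of -0.50. The 2 genotypes did not overlap for any of the 3 ratios, and each gave p = 0.1 in a two-sided exact permutation test (Benjamini-Hochberg adjusted p = 0.1 over the 3 ratios), the smallest value that 3 against 3 libraries allow. Without WT 2 the differences were -0.78, -0.40 and -0.38 in the order given, and without both WT 2 and KO 2 they were -0.68, -0.31 and -0.29. The 3 constitutive subunits summed to 243, 233 and 233 CPM in WT and 325, 383 and 361 CPM in KO, while the 3 inducible ones summed to 251, 331 and 238 CPM in WT and 268, 250.3 and 265 CPM in KO. The inducible share of the 6 genes' counts was 50.8, 58.7 and 50.6% in WT and 45.2, 39.5 and 42.4% in KO. Scaled to transcript length, it was 37.8, 45.6 and 37.6% in WT and 32.5, 27.4 and 29.8% in KO.

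Scaled to the median length of each gene's protein-coding transcripts, the WT order of the catalytic genes was Psmb6 (121.7 ± 5.33 CPM per kb), Psmb5 (93.6 ± 0.745), Psmb8 (83.98 ± 13.1), Psmb10 (66.5 ± 14.2), Psmb7 (58.9 ± 1.56) and Psmb9 (36.8 ± 7.82), as mean ± SD with n = 3. Among neighbours in this order, the WT ranges of Psmb5 and Psmb8 overlapped, as did those of Psmb10 and Psmb7. The ranges of Psmb8 and Psmb10 overlapped too, but Psmb8 was the higher within each WT library, at 78.4 against 58.9, 98.9 against 82.9 and 74.7 against 57.8 CPM per kb. In KO the order was Psmb6 (197 ± 14.5 CPM per kb), Psmb5 (139.9 ± 16.3), Psmb8 (87.6 ± 2.65), Psmb7 (80.2 ± 5.01), Psmb10 (59.4 ± 3.15) and Psmb9 (30.2 ± 2.73), so by this length Psmb7 and Psmb10 stood in the opposite order. The KO ranges of Psmb8 and Psmb7 overlapped, and in KO 2 Psmb7 was the higher (85.7 against 85.4 CPM per kb). The order of levels depends on the length used. Per kb of all annotated exons merged, Psmb5 was the highest in WT with 79.2 CPM per kb, and Psmb6 (51.9), Psmb10 (51.1) and Psmb8 (40.4) followed. By this length Psmb10 stood above Psmb7 in both genotypes, at 51.1 against 20.0 in WT and 45.7 against 27.2 in KO. By both lengths Psmb9 was the lowest of the 6 in each genotype.

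The DNA just upstream of these genes is shown for catalytic subunits of both kinds. RefSeq windows on GRCm38.p6 of 300 bases, from 250 before to 50 after the start, were matched by symbol for 38 of the 44 members looked up. These 44 leave out Psma8 and include the untested Psmb11, so they differ from the 44 tested genes. Printed is the stretch of each window before the start that lies outside all GENCODE M21 exons, 5′ to 3′ on the gene's strand. Windows of Psmb8 and Psmb9 lie within annotated exons up to the start and are not printed. Psme4 is added as the 1 member that fell. Capitals mark matches, on either strand, to 6 motifs: CCAAT, the antioxidant response element core TGACNNNGC, the tandem interferon regulatory factor element (GAAA, any 2 bases, GAAA), the STAT palindrome TTCNNNGAA, the GC box GGGCGG and the E-box CACGTG. The interferon and STAT motifs can share bases.
Psmb5 (GRCm38 chr14:54618023-54618245, minus strand): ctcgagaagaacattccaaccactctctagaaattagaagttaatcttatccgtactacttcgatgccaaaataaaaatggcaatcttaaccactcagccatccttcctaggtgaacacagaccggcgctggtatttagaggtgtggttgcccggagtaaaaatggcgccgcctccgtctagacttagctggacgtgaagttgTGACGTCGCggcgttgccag
Psmb6 (GRCm38 chr11:70525107-70525356, plus strand): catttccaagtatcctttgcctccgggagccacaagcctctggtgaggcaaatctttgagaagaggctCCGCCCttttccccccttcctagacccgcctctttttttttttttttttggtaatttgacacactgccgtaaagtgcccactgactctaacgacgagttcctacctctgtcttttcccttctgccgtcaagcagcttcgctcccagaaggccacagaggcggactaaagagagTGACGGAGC
Psmb10 (GRCm38 chr8:105938445-105938642, minus strand): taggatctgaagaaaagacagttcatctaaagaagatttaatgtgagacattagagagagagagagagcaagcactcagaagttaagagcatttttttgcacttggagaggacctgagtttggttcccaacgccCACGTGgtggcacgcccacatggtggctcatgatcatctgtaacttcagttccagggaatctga
Psme4 (GRCm38 chr11:30771525-30771725, plus strand): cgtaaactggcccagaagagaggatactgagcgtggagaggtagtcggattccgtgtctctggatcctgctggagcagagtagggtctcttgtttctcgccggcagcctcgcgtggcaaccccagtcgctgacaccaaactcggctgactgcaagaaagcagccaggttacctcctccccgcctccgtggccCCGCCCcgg

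The Psmb5 and Psmb6 stretches each hold 1 match to TGACNNNGC close to the start, TGACGTCGC and TGACGGAGC. This is the core of the element bound by NRF1 and NRF2 with small MAF proteins. It was found in 12.4% of all 32851 windows of this length, and in 6 of the 38 members (Psmb5, Psmb6, Psmc6, Psmd12, Psmd9 and Psme4), or 15.8%. The match of Psme4 is in its window but not fully within the printed stretch, so no capitals mark it. The window of Psmb10 holds an E-box match. This motif was found in 4 of the 38 members (Psma4, Psmb10, Psmd9 and Psme3), or 10.5%, and in 7.15% of all windows. CCAAT was found in 11 of the 25 windowed members that rose (44.0%) and in 37.4% of all windows, and GGGCGG in 15 of the 25 and in 35.7%. Of the 11 windowed members that were not called, 3 held CCAAT and 6 held GGGCGG. The tandem interferon element was found in 4 members, Psmb3, Psmd4, Psmd9 and Psme1, and in 3.44% of all windows; it was in the window of none of the 3 inducible subunits. The STAT palindrome was found in 2 members, Psmb8 and Psmd2, and in 8.30% of all windows. These matches are letters in a window and describe no binding.

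The non-catalytic 20S subunits mostly rose. Of 8 alpha subunits 5 rose, against 18.5% of all tested genes. All 8 had KO libraries above all WT libraries, which held for 27.0% of all tested genes. Psma3 went from 37.9, 38.9 and 35.7 CPM to 46.3, 47.1 and 46.3 CPM, a log2 fold change of 0.31 (SE 0.06). Psma4 and Psma5 were not called, with log2 fold changes of 0.21 and 0.12 (edgeR adjusted p of 0.0743 and 0.126). Psma8, the alpha subunit of the testis, was scarce at 1.10 to 1.21 CPM in WT and 1.27 to 2.11 CPM in KO and was not called (edgeR adjusted p = 0.0794). Of the 4 structural beta subunits Psmb2, Psmb3 and Psmb4 rose, although Psmb2 (edgeR adjusted p = 0.0468) was not called by DESeq2 (0.0517), limma-voom (0.0519) or limma on the deposited signal (0.107). Psmb3 changed most, from 50.8, 50.2 and 46.0 CPM to 66.8, 66.3 and 61.8 CPM (log2 fold change 0.41, SE 0.06). Psmb1 stood at 130.4, 118 and 118 CPM in WT and at 123, 126 and 122 CPM in KO. It was the 1 constitutive core gene whose genotypes overlapped, with a log2 fold change of 0.02 (SE 0.06; edgeR adjusted p = 0.817). Psmb11, the catalytic subunit of thymic epithelium, had 3 to 9 counts per library and was not tested.

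The 19S cap rose almost throughout. Its ATPases, which unfold substrates and open the core, gave 5 rises among 6 genes, from 0.24 for Psmc3 to 0.39 for Psmc5 on the log2 scale, and Psmc1 missed the threshold (log2 fold change 0.17, edgeR adjusted p = 0.0655). Psmc5 went from 66.9, 66.2 and 62.7 CPM to 80.5, 89.4 and 86.1 CPM. All 11 non-ATPase subunits rose, by 0.20 (Psmd4, a ubiquitin receptor) to 0.52 (Psmd14). Psmd14, the deubiquitinase that cuts ubiquitin from substrates at the cap, stood at 46.6, 39.1 and 46.5 CPM in WT and 61.6, 69.3 and 59.5 CPM in KO (SE 0.09; edgeR adjusted p = 0.0076). Psmd2, a scaffold subunit and the most abundant transcript of the family by CPM, was even in WT at 248, 249 and 253 CPM and rose to 301, 358 and 328 CPM (log2 fold change 0.40, SE 0.07). For all 17 of these cap genes each KO library lay above each WT library, which held for 27.0% of all tested genes. Over all tested genes 18.5% rose. Without WT 1, 3 non-ATPase and 4 ATPase genes were called higher, beside 7.93% of all genes. Without WT 2 and KO 2 together, the numbers were 3 and 2, beside 5.49%. Among the 3 chaperones that assemble the cap Psmd5 rose by 0.25, and Psmd9 and Psmd10 were not called at 0.18 and 0.09.

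**Figure D3:**
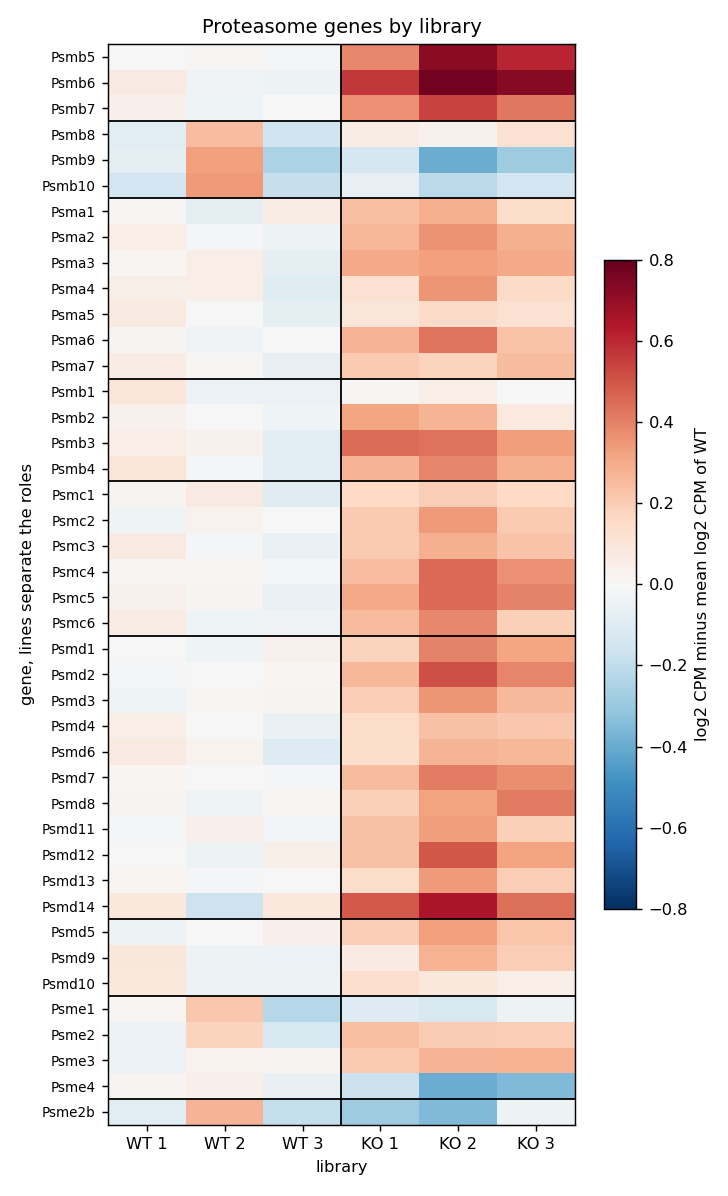
Log2 CPM of each gene in each library minus the gene's mean log2 CPM in WT (colour), with lines between the roles in the same order as in the plot of fold changes; the scarce Psma8, Psmb11 and Psmc3ip are left out. KO 2 is the highest KO library for 27 of the 20S and 19S subunits shown, the inducible ones and the chaperones aside, and WT 2 stands out among WT libraries for Psmb8, Psmb9, Psmb10, Psme1, Psme2 and Psme2b.

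Of the 32 genes of the 20S and 19S particles without the inducible, thymic and chaperone genes (Psma8 included), 27 rose and none fell (0 also in DESeq2 and limma-voom, and all 32 had a positive fold change), and their summed level was 2803, 2729 and 2695 CPM in WT and 3240.4, 3569 and 3365 CPM in KO. KO 2 was the highest KO library for 27 of the 32 and WT 1 the highest WT library for 20. For 31 of the 32, each KO library was above every WT library, which held for 27.0% of all tested genes. Over all tested genes 18.5% rose and 16.8% fell. Across the whole family 14 of the 30 rises were called when each single library was left out in turn: Psma2, Psma3, Psma6, Psmb3, Psmb4, Psmb5, Psmb6, Psmb7, Psmc3ip, Psmc4, Psmc5, Psmd2, Psmd7 and Psmd14. The other 16 lost the call without at least 1 library, and Psmb2, Psmd4, Psmd6 and Psmd13 lost it without any of 5. With upper-quartile scaling, under which 22.8% of all genes rose, the rises numbered 34.

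The proteasome activators went in different directions. Psme3, the nuclear activator, rose from 75.1, 79.2 and 78.9 CPM to 89.7, 93.6 and 94.0 CPM (log2 fold change 0.25, SE 0.05; edgeR adjusted p = 0.0123), a call lost without WT 1 or KO 3. Psme4, the large activator PA200, linked to the degradation of acetylated histones, was the 1 member that fell. It stood at 94.7, 95.8 and 89.4 CPM in WT and 82.7, 70.8 and 72.9 CPM in KO, with no overlap (log2 fold change -0.31, SE 0.07; edgeR adjusted p = 0.0178). Its adjusted p was 0.0504 to 0.0682 without WT 1, WT 2, KO 2 or KO 3, with log2 fold changes of -0.26 to -0.30.

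The PA28 pair was not called. Psme1 stood at 150.4, 173 and 127 CPM in WT and 139, 136 and 145 CPM in KO, overlapping (log2 fold change -0.10, SE 0.11; edgeR adjusted p = 0.482). Psme2 stood at 87.0, 102 and 82.2 CPM in WT and 106, 104 and 103 CPM in KO (log2 fold change 0.21, SE 0.08; edgeR adjusted p = 0.0868). Without WT 2 it was called as a rise of 0.30 (edgeR adjusted p = 0.0304). Psme2b is a near-identical copy of Psme2 whose transcript is identical to it at 789 of 794 aligned bases (99.4%), so the authors' counting may have split reads between them. It also overlaps 9930111J21Rik1 and Gm12185 on the same strand. Psme2b stood at 40.6, 52.0 and 37.7 CPM in WT and 35.4, 33.6 and 41.8 CPM in KO and was not called (log2 fold change -0.23, SE 0.14). Psmc3ip matches the symbol pattern but encodes a recombination factor named for binding Psmc3, and it is no proteasome subunit. It rose at a low level, from 1.88, 1.62 and 2.03 CPM to 3.16, 5.39 and 3.92 CPM (log2 fold change 1.17, SE 0.23; edgeR adjusted p = 0.0107).

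Assembly and associated factors of the proteasome outside these families leaned the same way. Of 13 assembly chaperones, inhibitors and associated factors 7 rose and none fell (0 also in DESeq2 and limma-voom, and in edgeR at an unadjusted p under 0.05), with a median log2 fold change of 0.25. The share that rose was 53.8%, against 18.5% of all tested genes, of which 16.8% fell. Uchl5, a deubiquitinase docked on the cap, went from 21.4 ± 1.56 CPM to 30.9 ± 2.97 CPM. Usp14, another, went from 59.3 ± 6.29 CPM to 84.0 ± 9.37 CPM, a call lost without WT 1. Psmg1 and Psmg2 encode partners in a chaperone that starts the alpha ring. Psmg1 rose from 8.32 ± 0.873 CPM to 11.9 ± 0.458 CPM, and Psmg2 from 11.9 ± 0.568 CPM to 16.02 ± 0.455 CPM (mean ± SD, n = 3). Other lists lay near the share of all tested genes that rose (18.5%). Of 6 ubiquitin genes and E1 enzymes 1 rose (16.7%). Of 9 ubiquitin shuttles and unfoldase cofactors 2 rose (22.2%) and 1 fell, while 16.8% of all tested genes fell. In this list Faf1 was one of the genes that rose, by 0.25, and Ddi2 fell by 0.29. The Faf1 call was lost without any 1 library except KO 1, and on the deposited signal.

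Most genes that control proteasome transcription were not called higher. Nfe2l1 encodes NRF1, the factor that restores proteasome synthesis when proteasome activity is short. It stood at 196, 195 and 200.3 CPM in WT and 199, 214 and 213 CPM in KO (log2 fold change 0.08, SE 0.06; edgeR adjusted p = 0.268). The 2 enzymes that process the NRF1 protein fell: the peptide glycanase gene Ngly1 from 32.1, 30.2 and 30.6 CPM to 25.8, 21.1 and 21.6 CPM (log2 fold change -0.44), and the protease gene Ddi2 from 229, 228 and 241 CPM to 214, 173 and 185 CPM (-0.29). The Ddi2 call was lost without any 1 library except KO 1 and with upper-quartile scaling, and on the deposited signal its log2 fold change was -0.13 (limma adjusted p = 0.217). Nfe2l2, which encodes NRF2, the regulator of antioxidant genes, fell from 397, 454 and 395 CPM to 317, 257 and 309 CPM (log2 fold change -0.50, SE 0.10; edgeR adjusted p = 0.0111). Vcp, the unfoldase that extracts proteins from membranes and complexes, rose by 0.20, a call lost without any 1 library except KO 1, with no filter and on the deposited signal. In this list of 8 genes 1 rose (12.5%) and 3 fell, while 18.5% of all tested genes rose and 16.8% fell.

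**Figure D4:**
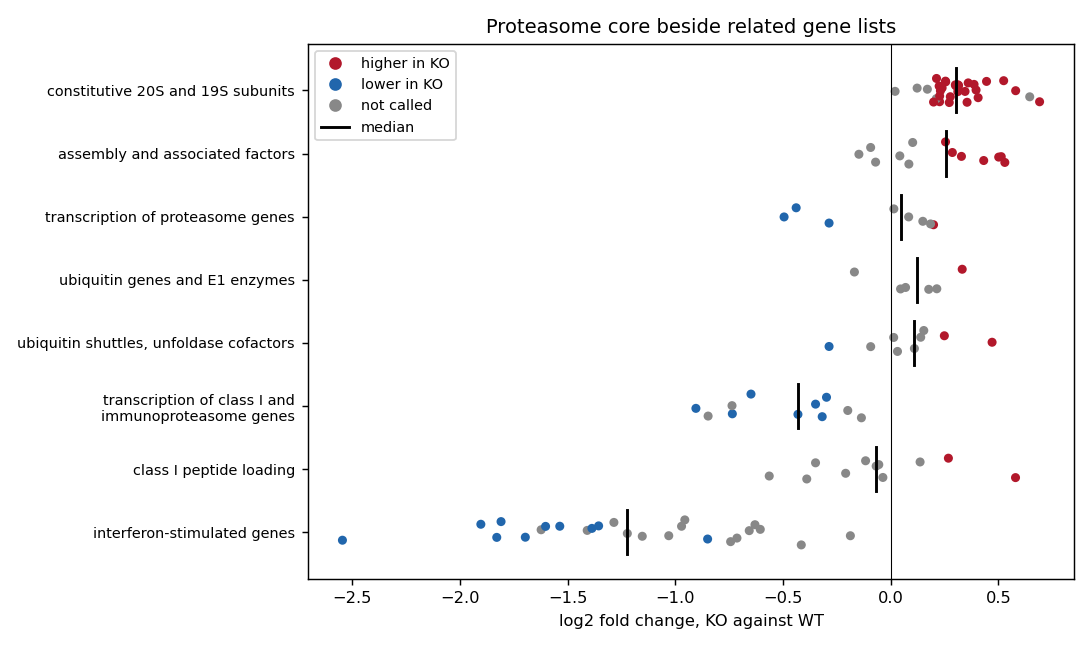
Log2 fold change, KO against WT (x axis), of each gene (point) in the constitutive 20S and 19S subunits and in 7 related lists, with the median of each list (vertical bar). Medians are 0.30 for the constitutive subunits, -0.43 for the list of factors that act on class I and immunoproteasome genes, and -1.22 for interferon-stimulated genes.

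The interferon-linked genes that act on the inducible subunits were lower in KO. Of 11 such genes 7 fell and none rose (0 also in DESeq2 and limma-voom, and in edgeR at an unadjusted p under 0.05), with a median log2 fold change of -0.43. Over all tested genes 16.8% fell and 18.5% rose. Irf1, the factor best known for inducing Psmb9, fell from 119.6, 170.1 and 112 CPM to 92.0, 71.3 and 78.1 CPM (log2 fold change -0.74, SE 0.18; edgeR adjusted p = 0.0226), a call lost without KO 2 or KO 3 and with no filter on low counts. Nlrc5, the transactivator of class I genes, fell from 44.0, 74.3 and 44.3 CPM to 32.4, 24.8 and 29.6 CPM (log2 fold change -0.90, SE 0.23; edgeR adjusted p = 0.0273), a call lost without any 1 of the KO libraries and with no filter. Ifngr1, a chain of the interferon gamma receptor, fell from 374, 387 and 348 CPM to 281, 195 and 232 CPM (log2 fold change -0.65). Without WT 1 the falls in this list numbered 3, and without KO 2 or KO 3 they numbered 2. The falls among all genes were 942 of 13073 without WT 1, 1293 of 13054 without KO 2 and 1057 of 13051 without KO 3.

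WT 2, the library highest for the inducible subunits, was also the highest for interferon-stimulated genes. The summed level of 25 such genes was 1459, 3109 and 1239 CPM in WT 1 to WT 3 and 1137, 763 and 985 CPM in KO 1 to KO 3. Of these 25 genes 10 fell in KO, while 16.8% of all tested genes fell. None of the 25 rose (0 also in DESeq2 and limma-voom, and in edgeR for unadjusted p-values under 0.05). DESeq2 called 18 falls. With 1 library left out edgeR called 6 (WT 2 omitted), 2 (WT 1 omitted), 15 (WT 3 omitted), 3 (KO 1 omitted) or 1 (KO 2 or KO 3 omitted). The falls among all genes were then 1160 of 13103 (WT 2 omitted), 942 of 13073 (WT 1 omitted) and 1653 of 13120 (WT 3 omitted). They were 2665 of 13088 (KO 1 omitted), 1293 of 13054 (KO 2 omitted) and 1057 of 13051 (KO 3 omitted). The part of the difference in interferon-stimulated genes in the values of Psmb8, Psmb9 and Psmb10 was not tested. In the class I loading list Tap1, the neighbour of Psmb9, stood at 73.8, 105.6 and 67.5 CPM in WT and 69.4, 52.5 and 66.4 CPM in KO and was not called (log2 fold change -0.39, SE 0.19; edgeR adjusted p = 0.157). Of 11 genes of that list 2 rose, the endoplasmic reticulum chaperones Calr and Pdia3, and none fell in edgeR, where 1 was lower at an unadjusted p under 0.05, while DESeq2 called 1 fall. The share that rose was 18.2%, near the 18.5% of all tested genes, of which 16.8% fell. The Pdia3 call was lost without KO 2 or any 1 of the WT libraries.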

How the data were processed

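Total RNA of 6 macrophage cultures was sequenced as directional libraries. The submitters' processing notes name DRAGEN, DESeq2 and the build mm10, without versions or roles. How reads were counted, with which annotation and strand setting, is not given in the sources used here. The authors deposited whole-number counts per Ensembl gene, and a normalized signal whose ratio to the counts varies from gene to gene within a library. Symbols, coordinates and lengths came from GENCODE M21 (GRCm38, the assembly also called mm10), in which all 42256 rows had a symbol. Promoter windows came from RefSeq.

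Groups follow the genotype label, and replicates are numbered in sample order. Counts were filtered with filterByExpr (minimum count 10), given TMM scaling and fitted in R 4.3.3 with edgeR 4.0.16 (robust glmQLFit, glmQLFTest: the quasi-likelihood test), KO against WT without covariates, with Benjamini-Hochberg adjustment over 12862 genes and a threshold of 0.05. Rise and fall are used for genes past it. The test was checked on simulated counts. Ratios of 2 genes were tested by exact permutation. The members and lists were chosen with earlier results of these data known. Named genes are any members and, per other list, up to 4 called genes of the largest change, with Nfe2l1, Irf1, Nlrc5 and Tap1 in any case; a few genes that the rule names are not reported here. Alternatives were DESeq2 1.42.0, limma-voom (limma 3.58.1), changed scaling or filtering, limma-trend on the authors' signal (log2 after adding 1), and libraries left out.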

Additional observations from a re-analysis of the deposited data

How the results depend on the processing

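The 3 ratios of an inducible to a constitutive subunit kept their direction under each alternative: leaving out 1 library gave log2 differences of -0.59 to -0.38 for Psmb8 to Psmb5, -1.09 to -0.78 for Psmb9 to Psmb6 and -0.68 to -0.40 for Psmb10 to Psmb7. Leaving out 1 library gave 16 to 31 rises and 0 to 1 falls among the proteasome genes, a median log2 fold change of 0.22 to 0.27, 1037 to 2791 rises and 942 to 2665 falls among all genes, and 8 to 14 rises and 5 to 27 falls among the 82 genes of the other lists. Without WT 2 and KO 2 together, there were 11 rises and 0 falls among the proteasome genes (edgeR, with 31 rises at an unadjusted p under 0.05), 710 and 668 among all genes, and 4 and 9 in the other lists. Fewer libraries also lower the power. The 20 falls in the other lists were 31 with DESeq2 and 9 without a filter; the cause was not tested. Upper-quartile scaling gave a median of 0.31 for the proteasome genes and moved the median of all genes from 0.00139 to 0.06; it split all calls into 2933 rises and 1621 falls, against 2375 and 2157 with TMM. DESeq2, limma-voom and the deposited signal gave 29, 29 and 24 rises among the proteasome genes. No paired analysis was possible because the labels give no number, animal or batch shared by the genotypes. The scarce Psma8, Psmb11 and Psmc3ip are limited by depth.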

Other observations

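The inducible subunits were not shifted alike relative to each other. The ratio of Psmb8 to Psmb9 counts was 2.74, 2.62 and 2.95 in WT 1 to WT 3 and 3.16, 3.73 and 3.65 in KO 1 to KO 3, without overlap, although both genes lie within the same stretch of chromosome 17. Among the activators the ratio of Psme4 to Psme3 was 1.26, 1.21 and 1.13 in WT and 0.923, 0.756 and 0.776 in KO, also without overlap. These are ratios of counts, and Psme4 has the longer transcript: per kb of coding transcript Psme4 stood at 14.6, 14.8 and 13.8 CPM per kb and Psme3 at 28.2, 29.7 and 29.6 CPM per kb in WT. The ratio of Psme1 to Psme3 was 2.004, 2.19 and 1.61 in WT and 1.55, 1.45 and 1.54 in KO. For Psme2, the partner of Psme1, the ratio to Psme3 overlapped, at 1.16, 1.29 and 1.04 in WT and 1.19, 1.11 and 1.10 in KO. These ratios were chosen after their values were seen and carry no test.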
